A study of Mus musculus with 8 samples.

Results

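Ribosome biogenesis factors are the nuclear proteins that make the RNA of the ribosome and build its subunits. The 40 genes described here were listed by name for what their products do, with earlier results of these data known, so their shares set beside those of all genes are descriptions. All 40 were found in the deposited table of 52308 genes and had enough counts to be tested. They were measured in polyadenylated RNA of whole uterus from female ICR mice, an outbred laboratory stock, aged 6 to 8 weeks, at proestrus, estrus, metestrus and diestrus, with 2 libraries per stage and 8 in all. The labels name no genetic change, no treatment and no other agent in any stage. Vaginal smears set the stage, so the stage is read from cells of the vagina and the RNA from the uterus, and the labels leave unsaid if each library stands for its own mouse. The p-values below therefore reflect the scatter among these 8 libraries alone, and that scatter may be technical. By its title, the study concerned the estrogen-dependent regulation of the gene Fam3d over the cycle.

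Ribosomes are made in the nucleolus. RNA polymerase I copies the ribosomal DNA into a long precursor RNA, small nucleolar ribonucleoproteins (snoRNPs) modify it at chosen bases, and 2 sets of assembly factors fold and cut it into the small and the large subunit. In the uterus, estrogen is known to stimulate ribosomal RNA synthesis and cell growth, and the transcription factor Myc is known to activate many of the genes involved.

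Levels are given in CPM, a gene's counts divided by the composition-scaled total of its library and put on a common depth. Where a mean is printed its SD follows (n = 2 libraries), and a change is the log2 fold change ± SE of an edgeR quasi-likelihood fit to all 8 libraries. Each adjusted p is from that fit by the Benjamini-Hochberg method over the 18114 genes tested, and a gene is said to rise, fall or change where it is under 0.05. Library totals ran from 17863546 to 21896786 counts, and the 40 genes had between 220 and 28001 counts in a library. The biological coefficient of variation of the fit was 0.250. The uterine genes Esr1, Pgr, Hoxa10, Hoxa11 and Emx2 were present in all 8 libraries (summed 663 to 1321 CPM), and the ovary and oviduct genes Amh, Cyp19a1, Star and Ovgp1 summed to 4.37 to 15.8 CPM, with Cyp19a1 at 0 in 7 libraries. Diestrus library 1 stood apart in the 6 smooth muscle genes, which summed to 16509 CPM there and to between 6324 and 10590 CPM elsewhere.

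The factors were lowest in estrus and highest in metestrus. Of the 40 genes, 39 had their lowest mean in estrus and 38 their highest in metestrus, against 29.8% and 23.9% of all tested genes. Summed over the 40 genes, the level was 3343 and 3985 CPM in proestrus libraries 1 and 2, 2637 and 2999 CPM at estrus, 5165 and 6323 CPM at metestrus, and 3526 and 4410 CPM at diestrus. Both metestrus libraries lay above all 6 others and both estrus libraries below all 6 others. The order metestrus, diestrus, proestrus, estrus held for the means of 31 genes, where the order of diestrus and proestrus rested on single libraries, as given below for that pair. In 6 genes (Rrn3, Tcof1, Npm1, Gar1, Nhp2 and Bop1) proestrus came before diestrus. Polr1c and Noc4l had their highest mean in proestrus, and Utp20 had its lowest there.

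**Figure D1:**
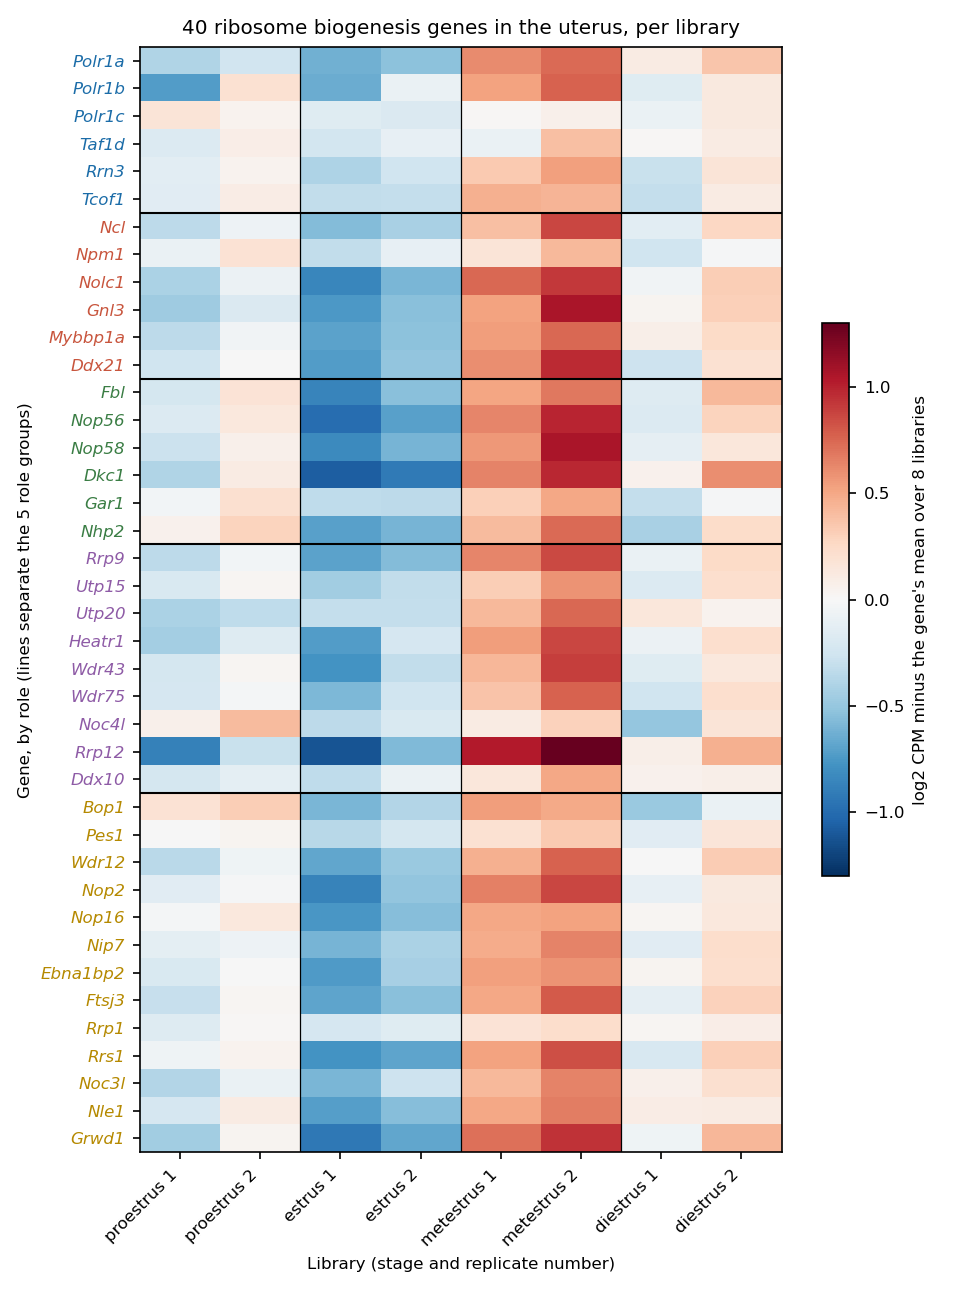
Level of each of the 40 genes (rows, grouped by role) in each of the 8 libraries (columns), as log2 CPM minus the mean of that gene over the libraries. The metestrus columns are the reddest for most genes and the estrus columns the bluest, and Polr1c, Taf1d and Rrp1 vary least.

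Across the 4 stages, 32 of the 40 genes changed (edgeR, adjusted p from 0.00302 to 0.0476), where 39.1% of all tested genes did. The highest stage mean was between 1.21 and 3.97 times the lowest, with a median of 2.24 over the 40 genes. All 6 snoRNP genes changed, as did 5 of 6 genes of the nucleolar scaffold, 11 of 13 of large subunit assembly, 7 of 9 of small subunit assembly and 3 of 6 of RNA polymerase I. The 8 genes that did not pass were Polr1b, Polr1c, Taf1d, Npm1, Noc4l, Ddx10, Pes1 and Rrp1 (adjusted p from 0.0611 to 0.429). Of the 32 calls, 11 held in each of the 14 alternatives run. The count was lowest without estrus library 1 and without metestrus library 2, and fewer of all tested genes passed in those fits too.

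From estrus to metestrus, 35 of the 40 genes rose and none fell. In this pair 16.7% of all tested genes rose and 19.5% fell. The median log2 fold change of the 40 genes was 1.17, and that of all tested genes was -0.05. Both metestrus libraries lay above both estrus libraries for all 40 genes, as they did for 36.3% of the tested genes (40.2% the other way). The change was over 2-fold for 25 of the 40 genes (62.5%) and for 11.4% of the tested genes. Of the 35 calls, 21 held in each of the 15 alternatives run. The count was lowest without estrus library 1 and without metestrus library 2, and fewer of all tested genes passed in those fits too. The median of the 40 genes was 1.06 without estrus library 1 and 1.08 without metestrus library 2. No gene of the 40 was called lower by edgeR, DESeq2 or limma-voom in this pair, nor at an unadjusted p under 0.05 by edgeR (0 of 40).

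**Figure D2:**
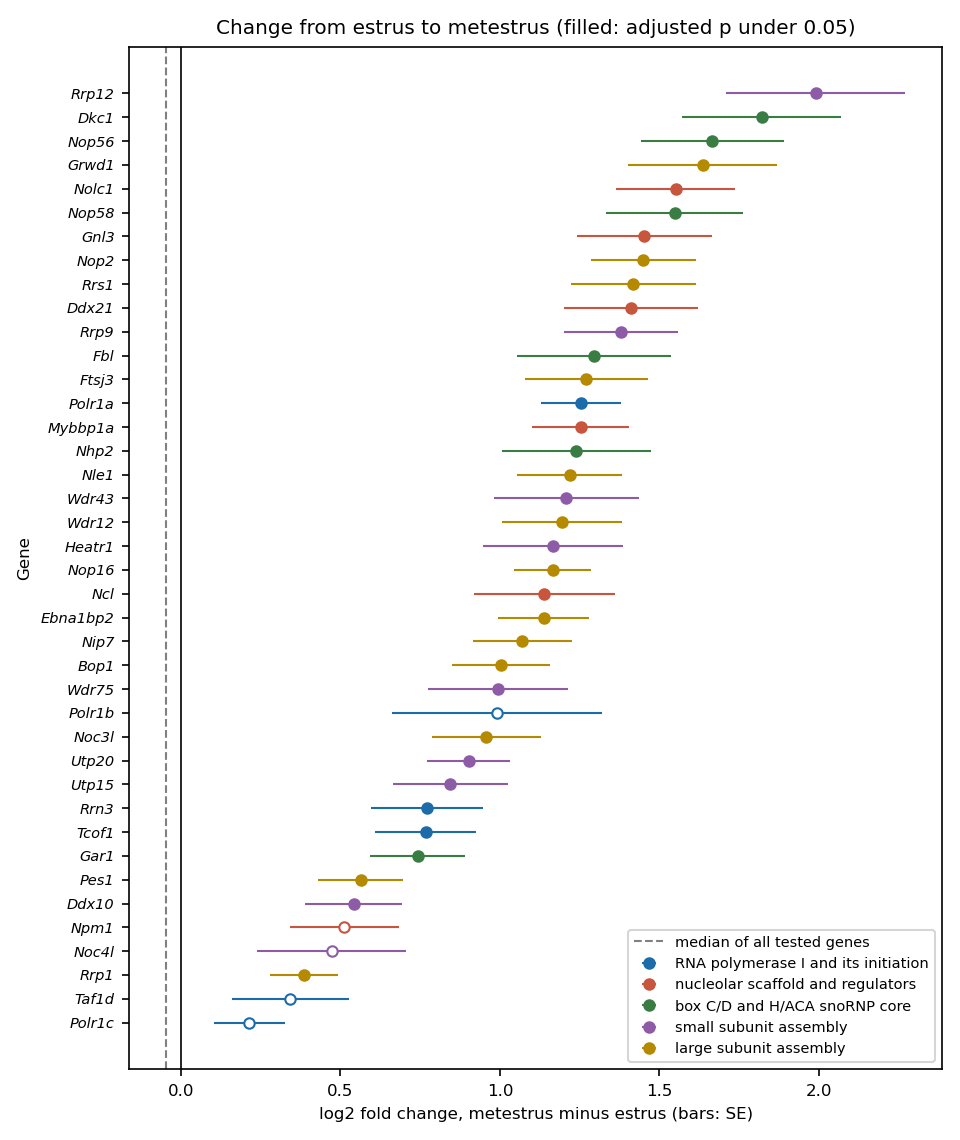
Log2 fold change from estrus to metestrus (horizontal axis, bars are SE) for the 40 genes, coloured by role, with filled points for adjusted p under 0.05 and a dashed line at the median of all tested genes. All 40 points lie to the right of 0, from 0.21 for Polr1c to 1.99 for Rrp12, and the 5 open points are Polr1b, Polr1c, Taf1d, Npm1 and Noc4l.

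Of the genes of RNA polymerase I and its initiation, 3 of 6 rose from estrus to metestrus, with a median of 0.77. Polr1a, the largest subunit of the enzyme (chromosome 6, 71909053 to 71984935, plus strand, GRCm38), had 47.0 and 52.0 CPM at proestrus, 40.02 and 42.5 at estrus, 94.4 and 103 at metestrus, and 66.5 and 79.0 at diestrus. No stage overlapped another. Polr1a rose from estrus to metestrus by 1.25 ± 0.13 (edgeR, adjusted p = 0.00190) and was the only gene of the role that was higher in metestrus than in proestrus (0.99 ± 0.12, adjusted p = 0.00607). The latter call ended without proestrus library 1 (0.0576), metestrus library 1 (0.0508) or metestrus library 2 (0.0658), within a range over all alternatives of 0.00197 to 0.0658.

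Tcof1 encodes treacle, a nucleolar protein needed for transcription of ribosomal DNA. It had 71.5 and 84.4 CPM at proestrus, 63.4 and 63.9 at estrus, 109 and 107 at metestrus, and 63.7 and 85.0 at diestrus. Only the metestrus pair stood clear of the rest. Rrn3, the initiation factor TIF-IA that joins the polymerase to the promoter, had 50.5 and 57.2, 41.9 and 46.3, 70.2 and 80.4, and 45.2 and 62.4 CPM in the same order of stages. Tcof1 rose from estrus to metestrus by 0.77 ± 0.16 and Rrn3 by 0.77 ± 0.18 (edgeR, adjusted p = 0.0124 and 0.0168). Both calls ended when any 1 library of estrus or metestrus was left out (adjusted p from 0.0552 to 0.0989).

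Polr1b, Polr1c and Taf1d did not pass in any pair of stages. Polr1b, the second-largest subunit, had 15.5 and 29.5 CPM at proestrus, 16.4 and 24.3 at estrus, 37.1 and 43.8 at metestrus, and 23.0 and 28.2 at diestrus. Its libraries lay far apart within proestrus and estrus, and its value from estrus to metestrus was 0.99 ± 0.33 (edgeR, adjusted p = 0.0550; by DESeq2, 0.0143). Polr1c, a subunit shared with RNA polymerase III, stayed between 48.1 and 61.5 CPM in the 8 libraries (across the stages, edgeR, adjusted p = 0.237). Taf1d, a part of the selectivity factor SL1, had 27.6 and 33.2 CPM at proestrus, 26.5 and 29.1 at estrus, 29.5 and 41.0 at metestrus, and 31.6 and 33.7 at diestrus (edgeR, adjusted p = 0.429). Its metestrus libraries enclosed the diestrus ones.

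The nucleolar scaffold and its regulators rose together, except Npm1, which did not pass. Nolc1, a phosphoprotein that binds snoRNPs and carries them through the nucleolus (chromosome 19, 46075863 to 46085530, plus strand), had 67.1 and 84.7 CPM at proestrus, 49.6 and 59.3 at estrus, 150 and 169 at metestrus, and 86.8 and 112 at diestrus. The 4 stages did not overlap. Nolc1 rose from estrus to metestrus by 1.55 ± 0.19 (edgeR, adjusted p = 0.00282) and was higher in metestrus than in proestrus by 1.07 ± 0.18 (edgeR, adjusted p = 0.0139). Without proestrus library 1, metestrus library 1 or metestrus library 2 the latter was 0.101, 0.0722 and 0.102 (adjusted p).

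Gnl3, the GTP-binding protein nucleostemin of dividing and stem cells, had 46.8 and 56.2 CPM at proestrus, 38.4 and 44.1 at estrus, 92.1 and 134 at metestrus, and 66.0 and 79.8 at diestrus. Mybbp1a, a nucleolar Myb-binding protein, had 165 and 203, 129 and 145, 303 and 349, and 220 and 248 CPM in the same order. In both genes the order of the stages was that of Nolc1, without overlap. Gnl3 rose from estrus to metestrus by 1.45 ± 0.21 and Mybbp1a by 1.25 ± 0.15 (edgeR, adjusted p = 0.00429 and 0.00288), and Ddx21, an RNA helicase that works with both RNA polymerase I and snoRNAs, rose by 1.41 ± 0.21 (edgeR, adjusted p = 0.00453). Ncl, nucleolin, rose from 466 ± 30.8 to 1027 ± 241 CPM (1.14 ± 0.22, edgeR, adjusted p = 0.0101). The Ncl call ended without estrus library 1 (0.0693), estrus library 2 (0.0502) or metestrus library 2 (0.0624).

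Npm1, nucleophosmin, had 615 and 744 CPM at proestrus, 524 and 606 at estrus, 736 and 877 at metestrus, and 547 and 645 at diestrus. Its stages overlapped except estrus with metestrus and with proestrus, and diestrus with metestrus. The value from estrus to metestrus, 0.51 ± 0.17, missed the threshold in edgeR (adjusted p = 0.0545) and passed in DESeq2 (0.0127) and limma-voom (0.0476). Per kilobase of annotated exon, Npm1 was the most abundant of the 40 genes, at 302 CPM per kilobase in metestrus, ahead of Ncl at 100.8 and Nhp2 at 78.0. That length takes all annotated exons of a gene together, 10188 bases for Ncl and 2665 for Npm1, and the order depends on it. In CPM at metestrus the mean of Ncl (1027 ± 241) was above that of Npm1 (806 ± 99.6).

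All 6 listed core proteins of the snoRNPs rose from estrus to metestrus. These particles come in a pair of kinds. Fbl, Nop56 and Nop58 belong to the core of the box C/D type, which methylates ribosomal RNA. Dkc1, Gar1 and Nhp2 belong to that of the H/ACA type, which turns uridine into pseudouridine. Dkc1, the pseudouridine synthase dyskerin (chromosome X, 75095854 to 75109777, plus strand), had 41.8 and 59.0 CPM at proestrus, 26.1 and 29.0 at estrus, 86.0 and 108 at metestrus, and 57.3 and 83.2 at diestrus. Both estrus libraries lay below the other 6, and proestrus and diestrus overlapped. Dkc1 rose from estrus to metestrus by 1.82 ± 0.25 (edgeR, adjusted p = 0.00364) and was lower in estrus than in diestrus, with a log2 fold change of -1.35 ± 0.25 (edgeR, adjusted p = 0.0119). The latter did not pass without estrus library 1 (0.0869) or estrus library 2 (0.0618).

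Nop56 (chromosome 2, 130274430 to 130279313, plus strand) had 98.1 and 123 CPM at proestrus, 55.8 and 68.2 at estrus, 172 and 221 at metestrus, and 98.4 and 136 at diestrus. Its partner Nop58 had 97.5 and 124, 66.4 and 77.7, 175 and 247, and 109 and 131 CPM. In both genes, proestrus and diestrus overlapped, estrus lay below them and metestrus above. Nop56 rose from estrus to metestrus by 1.67 ± 0.22 and Nop58 by 1.55 ± 0.21 (edgeR, adjusted p = 0.00354 and 0.00374). The methyltransferase itself, Fbl (fibrillarin), had 68.7 ± 10.6 CPM at estrus and 169 ± 14.2 CPM at metestrus (1.30 ± 0.24, edgeR, adjusted p = 0.00893), a call that ended without estrus library 1 (0.0670) or metestrus library 2 (0.0589).

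Gar1, a small protein of the H/ACA particle, had 33.4 and 39.5 CPM at proestrus, 27.3 and 27.0 at estrus, 42.3 and 48.5 at metestrus, and 27.6 and 33.7 at diestrus. It rose from estrus to metestrus by 0.74 ± 0.15 (edgeR, adjusted p = 0.0116), a call that ended without estrus library 1 (0.0685), estrus library 2 (0.0639) or metestrus library 2 (0.0752). Nhp2 rose from 37.9 ± 1.96 to 89.4 ± 14.6 CPM (1.24 ± 0.23, edgeR, adjusted p = 0.00922), which did not pass without estrus library 1 (0.0658) or metestrus library 2 (0.0614). No test compared the size of the change between Gar1 and Dkc1.

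**Figure D3:**
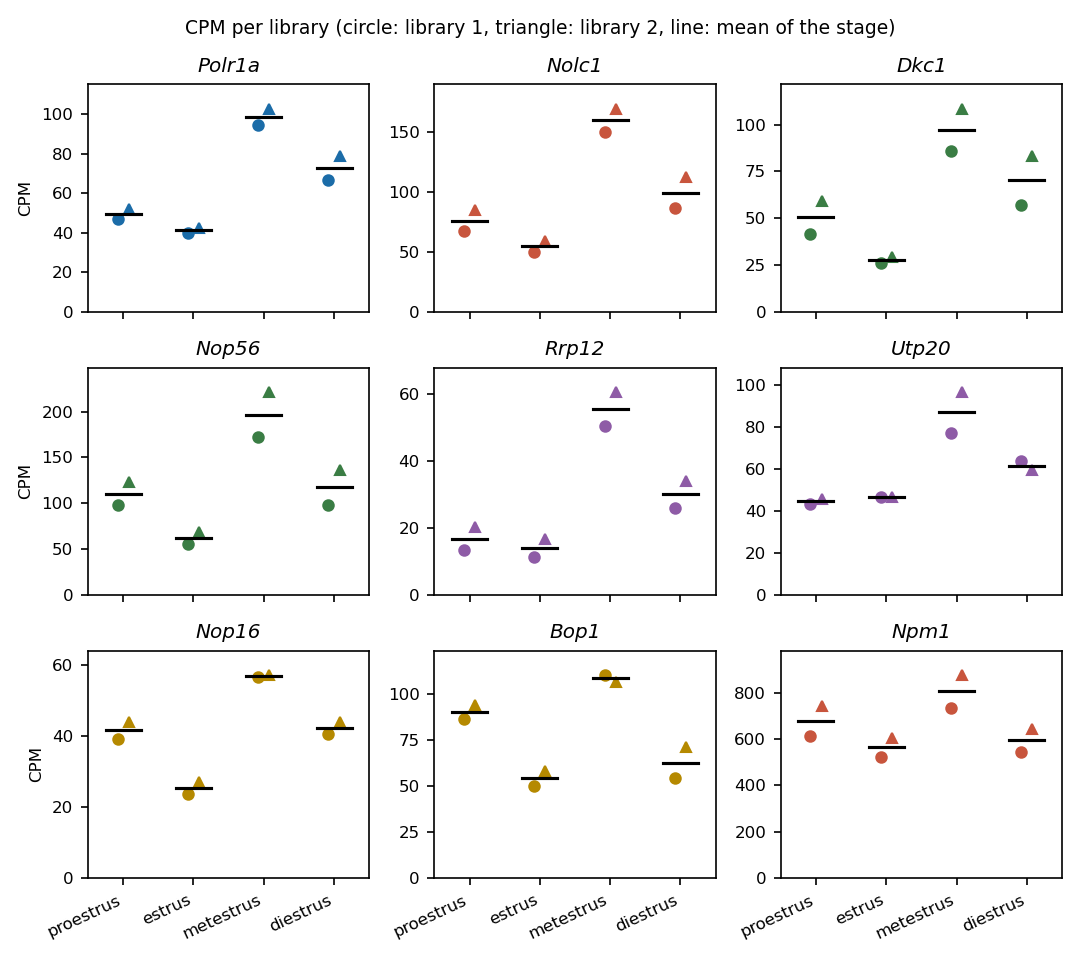
CPM of 9 genes in each library, with circles for library 1, triangles for library 2, a line at the mean of each stage and vertical axes that start at 0. Metestrus is the highest stage in all 9 panels, estrus is the lowest in all except Utp20, and the stages lie closest together for Npm1.

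Among the 9 genes of small subunit assembly, 8 rose from estrus to metestrus. Rrp12, a HEAT-repeat protein known for the export of both subunits and late processing (chromosome 19, 41862851 to 41896173, minus strand), had 13.4 and 20.2 CPM at proestrus, 11.4 and 16.6 at estrus, 50.3 and 60.6 at metestrus, and 26.0 and 33.9 at diestrus. Proestrus and estrus overlapped, and diestrus and metestrus each lay clear of them. Its rise from estrus to metestrus was the largest of the 40 genes at 1.99 ± 0.28 (edgeR, adjusted p = 0.00393). It was also the largest from proestrus to metestrus, at 1.72 ± 0.28 (edgeR, adjusted p = 0.0115), which did not pass without proestrus library 1 (0.0774), metestrus library 1 (0.0631) or metestrus library 2 (0.0905).

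Utp20, a large scaffold of the early small subunit particle (chromosome 10, 88746607 to 88826804, minus strand), kept a different order. It had 43.2 and 45.7 CPM at proestrus, 46.5 and 46.4 at estrus, 77.1 and 96.5 at metestrus, and 63.5 and 59.4 at diestrus. Its mean in estrus was not lower than in proestrus (0.06 ± 0.13, edgeR, adjusted p = 0.766), and it rose to metestrus by 0.90 ± 0.13 (edgeR, adjusted p = 0.00412). Rrp9, a protein of the U3 snoRNP, which base-pairs with the precursor RNA, had 21.6 and 26.7, 16.9 and 18.5, 42.5 and 49.6, and 25.7 and 32.5 CPM from proestrus to diestrus. Rrp9 rose from estrus to metestrus by 1.38 ± 0.18 (edgeR, adjusted p = 0.00323).

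Of the other small subunit genes, Wdr43, Heatr1, Wdr75, Utp15 and the helicase Ddx10 rose from estrus to metestrus by 0.54 to 1.21 (edgeR, adjusted p from 0.00931 to 0.0329). All 5 calls ended without estrus library 1 (adjusted p from 0.0566 to 0.154) or metestrus library 2 (0.0597 to 0.157), and those of Utp15 and Ddx10 also without estrus library 2 (0.0573 and 0.0652). Wdr43, Wdr75, Utp15 and Heatr1 belong to the complex that binds the precursor RNA as it is made. Noc4l, a nucleolar factor of the same particle, had 47.1 and 59.9 CPM at proestrus, 35.5 and 39.3 at estrus, 48.5 and 55.4 at metestrus, and 31.8 and 50.5 at diestrus. Its diestrus libraries lay far apart and overlapped all other stages, and no pair of stages passed in edgeR (across the stages, adjusted p = 0.232; without diestrus library 2, 0.0251).

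All 13 genes of large subunit assembly rose from estrus to metestrus. Nop16 (chromosome 13, 54584185 to 54590090, minus strand), a nucleolar protein of the early large subunit particle, had 39.3 and 44.02 CPM at proestrus, 23.7 and 27.2 at estrus, 56.8 and 57.2 at metestrus, and 40.8 and 44.1 at diestrus. Its libraries agreed closely within each stage. Nop16 rose from estrus to metestrus by 1.16 ± 0.12 (edgeR, adjusted p = 0.00198). Nop2, which methylates a cytosine of the large ribosomal RNA, had 61.4 and 67.3, 37.2 and 47.8, 107 and 125, and 63.4 and 74.4 CPM from proestrus to diestrus, and rose from estrus to metestrus by 1.45 ± 0.16 (edgeR, adjusted p = 0.00247). Ebna1bp2 had 65.1 and 74.2, 44.7 and 55.2, 108 and 112, and 76.4 and 87.0 CPM, with a rise of 1.14 ± 0.14 (edgeR, adjusted p = 0.00309).

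Pes1, Bop1 and Wdr12 form the PeBoW complex, which is needed to process the precursor of the large subunit RNA. Bop1 (chromosome 15, 76452989 to 76477277, minus strand) had 86.0 and 93.9 CPM at proestrus, 50.1 and 57.9 at estrus, 110 and 106 at metestrus, and 54.0 and 71.0 at diestrus. Wdr12 had 23.6 and 28.9, 18.9 and 21.6, 41.3 and 51.2, and 30.0 and 37.8 CPM, and Pes1 had 103 and 105, 80.1 and 88.1, 118 and 131, and 93.2 and 115 CPM. The 3 genes shared the lowest stage and the highest stage but not the order between them, since diestrus overlapped estrus for Bop1 and lay above proestrus for Wdr12. Bop1 rose from estrus to metestrus by 1.00 ± 0.16, Wdr12 by 1.19 ± 0.19 and Pes1 by 0.56 ± 0.13 (edgeR, adjusted p = 0.00510, 0.00541 and 0.0190). The Pes1 call ended without any 1 library of estrus or metestrus (adjusted p from 0.0592 to 0.107).

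Grwd1, a chaperone of a ribosomal protein, had 18.2 ± 2.27 CPM at estrus and 56.6 ± 6.08 CPM at metestrus, a rise of 1.63 ± 0.23 (edgeR, adjusted p = 0.00410). Rrs1, which brings the 5S RNA into the particle, rose by 1.42 ± 0.20, and the methyltransferase Ftsj3, Nle1, Nip7 and Noc3l rose by 0.96 to 1.27 (edgeR, adjusted p from 0.00355 to 0.00797). The Noc3l call ended without estrus library 1 (0.0552) or metestrus library 2 (0.0582). Rrp1 was among the most even of the 40 genes, with 153 and 174 CPM at proestrus, 148 and 155 at estrus, 194 and 202 at metestrus, and 175 and 183 at diestrus. Its rise of 0.39 ± 0.11 (edgeR, adjusted p = 0.0301) ended without any 1 library of estrus or metestrus (adjusted p from 0.0954 to 0.132) and with no filter on low counts (0.0619).

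Compared with proestrus, 22 of the 40 genes were higher in metestrus and none lower, where 6.68% of all tested genes were higher and 10.3% lower. The median log2 fold change was 0.73, against 0.01 for all tested genes, and the libraries did not overlap for 36 of the 40 genes in this direction (35.0% of tested genes). By role, 9 of 13 large subunit genes, 5 of 6 scaffold genes, 4 of 9 small subunit genes, 3 of 6 snoRNP genes and 1 of 6 polymerase genes passed. This count depended on single libraries. It was 0 without proestrus library 1 or metestrus library 2, 2 without metestrus library 1, 8 without proestrus library 2 and 11 without either estrus library. All tested genes called in the pair numbered 3067 with every library and 476, 16, 312 and 1536 in the first 4 of these fits, and 1884 and 1900 without estrus library 1 and 2. With all libraries, edgeR called 22 genes of the 40, DESeq2 26 and limma-voom 22. At an unadjusted p under 0.05 in edgeR, 32 of the 40 were higher, as were 2869 of the 18114 tested genes.

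From proestrus to estrus the factors had lower means, and few passed. Nop16 fell by 0.71 ± 0.12, Bop1 by 0.74 ± 0.15 and Nop56 by 0.83 ± 0.22 (edgeR, adjusted p = 0.0151, 0.0266 and 0.04996), 3 of 40 genes where 6.94% of tested genes fell and 8.12% rose. None of the 40 rose by edgeR, DESeq2 or limma-voom, and 0 were higher at an unadjusted p under 0.05. The median was -0.41, and the estrus libraries lay below the proestrus libraries for 32 of the 40 genes (33.3% of tested genes). The count of falls was 0 without proestrus library 2 or either estrus library, 1 without proestrus library 1 or either metestrus library, 12 without either diestrus library and 11 by DESeq2. With the replicate number as a block it was 18.

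Estrus was lower than diestrus for 19 of the 40 genes and higher for none, where 9.97% of tested genes were lower and 13.9% higher. The estrus libraries lay below the diestrus libraries for 34 of the 40 genes (30.4% of tested genes). Here 9 large subunit, 4 snoRNP, 3 scaffold, 2 small subunit genes and Polr1a passed. Dkc1 had the largest difference, given above, and Polr1a differed by -0.82 ± 0.13 (edgeR, adjusted p = 0.00699). With all libraries, DESeq2 called 22 and limma-voom 18. At an unadjusted p under 0.05 in edgeR, 25 of the 40 were lower, as were 3221 of the 18114 tested genes. Of the 19 calls, 0 held in each of the 15 alternatives run. Without estrus library 1, where the median of the 40 genes was -0.51 (-0.58 with all libraries), the edgeR count was lowest. It was 4 without estrus library 2, 7 without diestrus library 2, and 11 and 12 without metestrus library 1 and 2. With only the 4 libraries of the pair it was 3.

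From metestrus to diestrus all 40 values were negative, from -0.89 to -0.02 with a median of -0.53, and none passed in edgeR or limma-voom. DESeq2 called 10 lower, where it called 5.48% of all tested genes in either direction. At an unadjusted p under 0.05 in edgeR, 29 of the 40 were lower, and so were 1601 of the 18114 tested genes. Few genes of any kind passed at the adjusted threshold in edgeR, 0.226% as lower and 0.282% as higher. The diestrus libraries lay below the metestrus libraries for 37 of the 40 genes, against 24.8% of tested genes. Without diestrus library 2 the median of the 40 genes was -0.80, and that of all tested genes was -0.03.

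Between diestrus and proestrus, 2 of the 40 genes were lower in proestrus and none higher, where 10.4% of tested genes were lower and 12.0% higher. The median was -0.14 (all tested genes -0.01). It was 0.01 without diestrus library 2 and -0.02 without proestrus library 1. The proestrus libraries lay below the diestrus libraries for 12 of the 40 genes, against 30.7% of tested genes, and above them for 1 (30.0%). The 2 genes were Polr1a (-0.56 ± 0.12, edgeR, adjusted p = 0.0232) and Utp20 (-0.47 ± 0.13, edgeR, adjusted p = 0.0441). Neither call held in all alternatives, with adjusted p up to 0.151 for Polr1a and 0.202 for Utp20. Left out singly, proestrus library 1 or 2, estrus library 1 and diestrus library 2 each left 0 of the 40 genes lower, and any other library left 1. Without diestrus library 2, Bop1 and Noc4l were instead higher in proestrus (0.74 and 0.76, edgeR, adjusted p = 0.0140 and 0.0328). With the replicate number as a block, 7 were lower and 1 higher. DESeq2 called 3 lower and 1 higher, limma-voom 1 and 1, and at an unadjusted p under 0.05 edgeR had 4 lower and 1 higher.

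Within every stage, library 2 held more of these RNAs than library 1. Its level was higher for 39 of 40 genes in proestrus, 37 at estrus, 38 at metestrus and 39 at diestrus, with median ratios of 1.20, 1.14, 1.17 and 1.25. Of all tested genes, 47.6% to 51.0% were higher in library 2 of a stage. The 40 DNA replication genes also summed higher in library 2 of each stage (953 and 1538 CPM at proestrus, 680 and 699 at estrus, 1918 and 2340 at metestrus, 830 and 1524 in diestrus). The labels do not say what the number marks.

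Marker genes of other cell types also changed over the stages. Across the 4 stages all 6 epithelial genes, 4 of 6 stromal, 4 of 6 immune, 1 of 4 endothelial, 2 of 4 tested red blood cell, 0 of 6 smooth muscle, 0 of 4 neutrophil and 0 of 3 fat genes passed (edgeR, adjusted p under 0.05). The 6 epithelial genes Epcam, Cdh1, Krt8, Krt18, Krt19 and Cldn7 summed to 3908 to 4792 CPM at proestrus, 2944 to 3439 at estrus, 1115 to 1175 at metestrus and 782 to 1029 at diestrus. The 6 immune genes summed to 541 to 573 CPM at estrus and to 141 to 235 CPM in the other stages. Stromal genes summed to 6799 to 9987 CPM at estrus, 9952 to 13828 at metestrus, 14802 to 17577 at proestrus and 9595 to 11811 at diestrus. They did not move together. Col1a1, Col1a2 and Lum had higher means in metestrus than in estrus, and Pdgfra, Dcn and Vim had lower ones. Smooth muscle genes summed to 8319 to 9670 at estrus and 7053 to 9123 at metestrus, and endothelial genes to 345 to 381 and 401 to 425. Here too the genes of a list differed. Kdr and Pecam1 had higher means in metestrus than in estrus, and Cdh5 and Tek lower ones. Acta2 and Cnn1 had higher means in metestrus, and Myh11, Des, Tagln and Actg2 lower ones. Neutrophil genes stayed at or under 37.7 CPM, red blood cell genes at or under 124 CPM and fat genes at or under 8.90 CPM, with all 3 fat genes at 0 in 4 libraries. In whole tissue, fewer cells of a type and less RNA per cell cannot be told apart, and the part of these shifts in the results above was not tested.

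Beyond the 40 genes, 111 other genes of the pathway were counted, of which 110 had enough counts (Exosc6 did not). In the step from estrus to metestrus 76 of the 110 rose and 4 fell, with a median of 0.66. Counted by role, 33 of 45 small subunit factors, 29 of 43 large subunit factors and 9 of 11 tested exosome genes rose. So did 5 of 11 genes listed with the polymerase. The transcription factor Myc was listed with the polymerase and is among those 5. The small subunit factors Bysl and Nol6 rose by 1.66 ± 0.20 and 1.13 ± 0.16 (edgeR, adjusted p = 0.00278 and 0.00372), the large subunit factors Ppan and Gnl3l by 1.64 ± 0.16 and 1.11 ± 0.12 (0.00171 and 0.00220), and the exosome genes Exosc10 and Dis3, which trim the precursor RNA, by 0.77 ± 0.12 and 1.54 ± 0.25 (0.00538 and 0.00619). The 4 that fell, chosen for naming after their values were seen, were Polr1d, a subunit shared by RNA polymerases I and III (-0.46 ± 0.11, edgeR, adjusted p = 0.0179), and the large subunit factors Las1l (-0.95 ± 0.25, 0.0266), Nop53 (-1.03 ± 0.14, 0.00352) and Nsa2 (-0.96 ± 0.18, 0.00872). From proestrus to metestrus 24 rose and 2 fell, and from proestrus to estrus 9 fell and none rose. Estrus was lower than diestrus for 28 and higher for 3, proestrus was lower than diestrus for 5 and higher for 4, and from metestrus to diestrus none passed.

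Ubtf, the factor that keeps ribosomal DNA open for RNA polymerase I, had 177 and 198 CPM at proestrus, 155 and 179 at estrus, 238 and 256 at metestrus, and 212 and 215 at diestrus, and rose from estrus to metestrus by 0.57 ± 0.12 (edgeR, adjusted p = 0.0132). Myc had 76.9 and 88.8 CPM at proestrus, 52.5 and 48.4 at estrus, 120 and 130 at metestrus, and 141 and 193 at diestrus. Its lowest stage was that of the factors, but its highest mean was in diestrus. Myc fell from proestrus to estrus by 0.71 ± 0.17 and rose to metestrus by 1.30 ± 0.17 (edgeR, adjusted p = 0.0376 and 0.00342), and its value from metestrus to diestrus was 0.42 ± 0.17 (edgeR, adjusted p = 0.259).

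Myc binds DNA with its partner Max at the sequence CACGTG, and this motif was looked for, on both strands, in the RefSeq promoter windows of these genes (GRCm38.p6, 250 bases before to 50 after the start). Windows were given for 34 of the 40 genes (not for Bop1, Rrs1, Rrp12, Npm1, Tcof1 and Fbl). The motif was in the windows of 8 of the 34 (23.5%) and of 18 of 88 other pathway genes with a window (20.5%). It was in those of 6 of 46 ribosomal protein genes (13.0%), of 10.9% of tested genes and of 8.09% of all genes with a window. The median share of G and C bases was 59.5% in the windows of the 34 genes and 52.7% in all windows. Its part in these shares was not tested. The sites are shown, with the motif in capitals and up to 12 bases on each side as the window allows, to let the 8 genes that have one be compared. The other 26 genes with a window have no match, and a match is not evidence of binding.
Nop2 (chr6:125131811-125131840, plus strand): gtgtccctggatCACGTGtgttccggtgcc
Rrn3, far site (chr16:13780472-13780501, plus strand): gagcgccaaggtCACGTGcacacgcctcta
Rrn3, near site (chr16:13780639-13780668, plus strand): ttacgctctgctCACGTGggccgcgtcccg
Grwd1 (chr7:45830740-45830767, minus strand): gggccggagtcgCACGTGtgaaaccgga
Utp20 (chr10:88826765-88826789, minus strand): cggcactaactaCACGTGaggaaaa
Pes1 (chr11:3963965-3963994, plus strand): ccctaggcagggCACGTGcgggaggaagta
Mybbp1a (chr11:72441355-72441376, plus strand): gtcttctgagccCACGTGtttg
Nle1 (chr11:82908355-82908384, minus strand): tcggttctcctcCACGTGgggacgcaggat
Wdr43 (chr17:71616220-71616249, plus strand): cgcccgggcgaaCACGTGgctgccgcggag
The site of Nop2 begins 60 bases before the RefSeq start and those of Rrn3 215 and 48 bases before it. The other 6 lie within 50 bases after that start, from 2 bases after it in Pes1 to 40 in Mybbp1a. The start of a gene in GENCODE M21 can lie elsewhere, as for Wdr43 (71615895). All 8 genes rose from estrus to metestrus, as did 35 of the 40 genes as a whole. The 8 values ran from 0.56 (Pes1) to 1.63 (Grwd1), within the range of the 40 genes. Whether genes with and without the motif differ was not tested. GGGCGG, a site of Sp1, was in the windows of 25 of the 34 genes (73.5%) and of 63.7% of tested genes. The palindromic CGCG element known as the ZBTB33 motif and the consensus palindrome of the estrogen response element were in none of the 34, and in 0.525% and 0.0740% of all genes with a window.

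The ribosomal proteins themselves had their lowest summed level in metestrus. The 60 cytosolic ribosomal protein genes counted summed to 46637 and 49122 CPM at proestrus, 39191 and 38360 at estrus, 35505 and 33502 at metestrus, and 47109 and 38582 at diestrus. Metestrus, where the assembly factors were highest, held the 2 lowest sums. From proestrus to metestrus 15 of the 60 fell and none rose, where 10.3% of all tested genes fell and 6.68% rose. The median of the 60 was -0.46, and that of the 40 factors was 0.73 over the same libraries. From estrus to metestrus 2 of the 60 rose and 6 fell (median -0.15), where 16.7% of all tested genes rose and 19.5% fell. In this step 13.3% of the 60 passed in either direction, and 36.2% of all tested genes did. Many ribosomal protein genes have processed copies elsewhere in the genome, which may make their counts less certain. The effect of such copies was not tested, for these genes or for the factors.

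**Figure D4:**
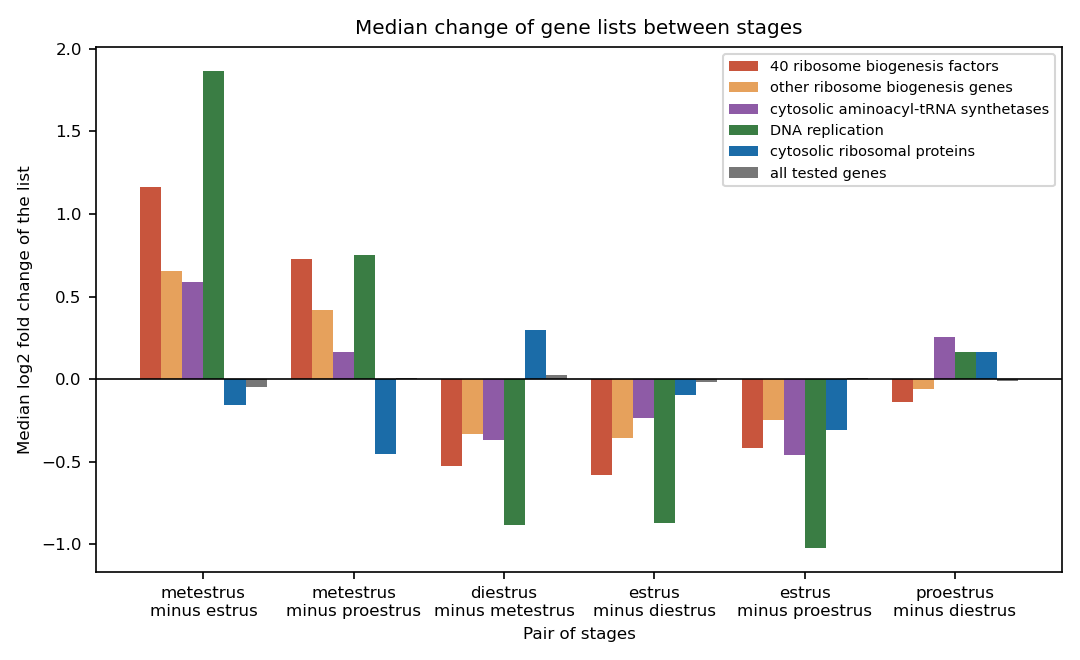
Median log2 fold change (vertical axis) of 6 sets of genes in each of the 6 pairs of stages (horizontal axis); bars start at 0 and carry no error. The bars for the 40 factors, at 1.17 from estrus to metestrus and 0.73 from proestrus to metestrus, point the same way as those for DNA replication genes (1.87 and 0.75), while those for ribosomal proteins point the other way (-0.15 and -0.46).

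The DNA replication genes, which mark cells in S phase, had the same lowest and highest stage by summed level. From estrus to metestrus 35 of 40 rose (median 1.87), and from proestrus to metestrus 4 did (median 0.75), against 22 of 40 factors. The median values of both sets in the latter pair were close, and the spread between the proestrus libraries was wider for replication genes. No test compared the sets.

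Some features of the 40 genes were not used to choose them. In the GENCODE M21 annotation 7 genes (Taf1d, Ncl, Gnl3, Nop56, Nop58, Dkc1 and Wdr43) hold 27 genes of snoRNAs or related scaRNAs inside them, the guides of the particles described above. From estrus to metestrus 6 of these 7 rose (median 1.45), as did 29 of the other 33 (median 1.14). The snoRNAs carry no poly(A) tail and are not targets of the poly(A) selection used here. In 15 of the 40 genes an exon overlaps an exon of a gene on the opposite strand. The strand setting of the counting is not given in the sources used here, so reads of the partners may be included. The median rise was 1.24 in these 15 and 0.99 in the other 25.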

How the data were processed

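The deposited values are counts per gene and library, not normalised by the authors (checked on the values, which are integers whose totals differ). The submitters' processing notes name STAR, featureCounts of Subread and build GRCm38 (mm10). Tool versions, the annotation used for counting and its strandedness: not given in the sources used here. RNA was read from stranded mRNA libraries, per the labels' protocols. Symbols and coordinates came from GENCODE M21, which named 52007 of 52308 identifiers. The others held at most 0.0240% of a library.

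Groups are the stages of the labels. edgeR 4.0.16 in R 4.3.3 was run with filterByExpr by stage, which left 18114 genes, with TMM factors from 0.898 to 1.11 and a quasi-likelihood fit of 1 coefficient per stage to 8 libraries (4 residual degrees of freedom). Stages were tested together and in 6 pairs, two-sided. The SE is the log2 fold change over the square root of F. Alternatives were DESeq2 1.42.0, its size factors in edgeR, limma-voom (limma 3.58.1), other filters (none, or 1 CPM in 2 libraries), the replicate number as a block, only the libraries of a pair, and each library left out. Where that left a stage with 1 library, it is assumed to vary like the others.

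The 40 genes and all lists were chosen with earlier results of these data known. Values in every library are given, per role, for the 3 genes of lowest p over the stages and the 1 of highest, for the called genes with the largest rise and fall in each pair, for PeBoW, and, added after values were seen, for Polr1b. Other pathway genes named are the 2 with the smallest p per list, Myc and Ubtf, except where stated.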

Additional observations from a re-analysis of the deposited data

How the results depend on the processing

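No call of any of the 40 genes reversed its direction in any alternative. With DESeq2 size factors in edgeR, 5 genes were lower in estrus than in proestrus, where the main count was 3. DESeq2 gave 11, no filter on low counts 7, and only the libraries of the pair 6. DESeq2 called 10 and no filter called 2 lower in diestrus than in metestrus, where the main count was 0. In the pair of proestrus and diestrus, DESeq2, limma-voom and no filter each called 1 gene higher in proestrus (main count 0), limma-voom called 1 lower and only the libraries of the pair called 0 lower (main count 2). Only the libraries of the pair left 3 genes lower in estrus than in diestrus (main count 19). The cause of these differences was not tested.

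What the replicate number marks is not stated, and the deviations over all genes do not show a pairing of the libraries. Over 18114 genes, those of same-numbered libraries correlated between -0.0926 and 0.145, positively in 3 of 6 pairs of stages and negatively in 3. A correlation over all genes cannot decide the matter for the 40 genes alone. Of the 40, 37 to 39 were higher in library 2 of every stage. With the number as a replicate block, 18 genes were lower in estrus than in proestrus, 7 were lower and 1 higher in proestrus than in diestrus, and 36 changed across the stages (main count 32). The other counts stayed within 1.5 times.

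Leaving out each library in turn gave 12 to 34 genes changed across the stages, 12 to 83 other pathway genes (main count 62), 21 to 38 higher in metestrus than in estrus, 0 to 30 higher in metestrus than in proestrus, 0 to 25 lower in estrus than in diestrus, 0 to 12 lower in estrus than in proestrus, 0 to 14 lower in diestrus than in metestrus, 0 to 2 higher in proestrus than in diestrus and 0 to 1 lower. Such fits have fewer libraries. Each of the 40 genes had at least 220 counts in every library, and the 2 libraries per stage limit the precision.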

Other observations

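The enzymes that charge transfer RNA, another gene group of protein synthesis, were counted beside the factors. Of the 20 cytosolic aminoacyl-tRNA synthetase genes, 15 rose and 1 fell from estrus to metestrus (median log2 fold change 0.59), and 8 fell and none rose from proestrus to estrus (median -0.46), where 3 of the 40 factors fell. From proestrus to metestrus 2 rose and 1 fell (median 0.17). Proestrus was higher than diestrus for 3 of the 20 and lower for none, and estrus was lower than diestrus for 4 and higher for 1. Their summed level was 2476 and 2540 CPM at proestrus, 1876 and 1895 at estrus, 2565 and 2790 at metestrus, and 1985 and 2310 at diestrus, so proestrus lay nearer to metestrus than it did for the factors. Whether the groups differ was not tested.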
